A study of Mus musculus with 9 samples.

Results

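The 43 genes described here act in mitosis and chromosome segregation. They are a list of gene names, 43 of the 22655 measured, read by 79 of 41174 probes on the array. The rule uses measured values only to keep probes with a signal above background. The list was chosen with earlier results of these data known, so the shares given below describe it and do not test it. Of those probes 76 gave a sample signal well above background on each of the 9 arrays, and 3 weak ones, 1 each for Bub3, Cenpa and Nuf2, did not pass the filter of 2 arrays. Every one of the 43 genes therefore entered the tests, each read from its brightest probe. 20 genes had 1 passing probe and 23 had several.

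A cell that divides condenses its chromosomes, attaches each pair of sister chromatids to spindle microtubules through kinetochores, and separates them only once the spindle checkpoint is satisfied. Most genes of this machinery are transcribed in G2 and mitosis and are nearly silent in resting cells, so their summed level in a tissue is widely used as a readout of how many cells are cycling. In stratified epithelia such as the esophagus, division is normally confined to the basal layer, which depends on the transcription factor p63.

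The esophagi were those of C57BL/6J mice at birth (postnatal day 0), in 3 groups: 4 wild type, 3 p63-/- and 2 p63-/- that also carried a Cdx2 transgene. Cdx2 is an intestinal transcription factor, and the series design names the Villin promoter, which is active in intestinal epithelium, as its driver. Each sample, labelled with Cy5, shared an array with a reference RNA from 11 cultured mouse cell lines, labelled with Cy3, and dyes were not swapped. The values below are log2 ratios of sample over reference, compared for 1 probe at a time. The labels call the arrays of a group biological replicates, the animals behind each are not described further, and the Cdx2 group is numbered out of 3 with 2 arrays in the series. Every p-value measures the spread between these arrays. Each genotype lay on 1 of 3 slides, read in 1 of 3 scans, so genotype and slide or scan cannot be told apart. The protocol describes extraction from esophageal tissue while the cell type label says epithelium. In whole tissue, fewer dividing cells and less RNA per cell cannot be told apart.

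The labels conflict for wild type replicate 4, whose title and genotype say wild type and whose source name says p63-/-. On that array the basal squamous epithelium markers had a median log2 ratio of 2.40, beside 2.19 to 2.50 on the other wild type arrays and 0.57 to 0.97 in the knockout. Knockout replicate 1 stood apart from its group in the mitosis genes, as described below, and both arrays were left out in turn. Trp63 itself read 3.71 ± 0.33 (SD, n = 4) in wild type, 2.73 ± 0.00 (n = 3) without p63 and 3.23 ± 0.20 (n = 2) with Cdx2, with an adjusted p of 0.0741 by limma for the knockout against wild type. Whether its probe lies in the deleted part is not given in the sources used here, so it does not check the genotype. Krt14, a keratin of the basal layer and a p63 target, fell by 2.22 in the knockout (SE 0.10, adjusted p = 0.000238 by limma). The Cdx2 probe was well above background on 0 of the 9 arrays, so the arrays do not check the transgene, and "with Cdx2" below means the 2 arrays labelled as carrying it.

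Most of the mitosis genes with a promoter window share sequence features that the choice by name did not use. Promoters of many G2 and mitosis genes carry CCAAT boxes, bound by NF-Y, and a cell cycle homology region (CHR), through which the DREAM and MuvB complexes act. Windows of 250 bases before to 50 after the annotated start were read from RefSeq (GRCm38.p6), and 37 of the 43 genes had one. The letters CCAAT, read on both strands, occurred in 29 of 37 windows (78.4%), beside 38.3% of the 13655 measured genes with a window. At least 2 such matches were present in 20 (54.1%), beside 13.8%. TTTGAA or TTCGAA, the CHR letters, on both strands, occurred in 29 of 37 (78.4%), beside 15.1%. Both motifs were found in 26 of 37 windows (70.3%), in 32 of 100 windows of other mitosis genes and in 6.23% of the measured genes. E2F letters (TTTGGCGC, TTTCGCGC or GGCGGGAA, both strands) were found in 1 of 37, Ncapd2, which is 2.7% beside 4.75%. TTCGAA reads the same on both strands and was counted once, CCAAT and CHR letters can share an end base, and a match is a description, not a bound site.

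Of 63 CCAAT matches in these windows 60 lay before the start and 41 within 100 bases before it, while 20 of the 39 CHR matches lay in the 50 bases after it. The 4 promoters printed here cover the 250 bases before the start and show the contrast between Itgb3bp, 1 of 5 members with neither motif, and 3 members with both motifs before the start and the lowest p against wild type in the Cdx2 group. They were picked after those values were seen. CCAAT and CHR matches are in capitals. Itgb3bp is at chr4:99829159-99829408 on the minus strand, Bub3 at chr7:131560120-131560369 on the plus strand, Ncapg at chr5:45669675-45669924 on the plus strand and Top2a at chr11:99024190-99024439 on the minus strand, all in GRCm38.p6.
Itgb3bp: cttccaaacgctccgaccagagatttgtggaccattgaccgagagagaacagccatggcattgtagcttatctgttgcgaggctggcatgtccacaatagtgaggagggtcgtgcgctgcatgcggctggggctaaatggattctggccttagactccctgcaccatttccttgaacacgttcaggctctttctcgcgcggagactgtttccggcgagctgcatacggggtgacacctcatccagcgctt
Bub3: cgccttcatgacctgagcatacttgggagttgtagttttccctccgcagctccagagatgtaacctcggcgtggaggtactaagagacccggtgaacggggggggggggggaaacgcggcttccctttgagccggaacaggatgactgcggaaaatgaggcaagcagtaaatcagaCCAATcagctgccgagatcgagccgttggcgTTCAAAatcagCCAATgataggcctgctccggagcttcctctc
Ncapg: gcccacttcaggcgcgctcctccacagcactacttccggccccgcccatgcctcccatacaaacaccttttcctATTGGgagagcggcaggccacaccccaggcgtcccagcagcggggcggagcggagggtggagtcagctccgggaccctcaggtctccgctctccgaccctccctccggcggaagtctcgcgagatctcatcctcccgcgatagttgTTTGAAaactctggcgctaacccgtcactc
Top2a: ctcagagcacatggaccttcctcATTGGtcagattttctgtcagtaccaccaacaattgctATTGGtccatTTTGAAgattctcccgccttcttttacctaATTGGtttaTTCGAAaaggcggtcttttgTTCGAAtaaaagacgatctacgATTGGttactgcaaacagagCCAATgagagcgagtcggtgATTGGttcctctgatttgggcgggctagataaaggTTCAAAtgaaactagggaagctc
The Top2a window alone holds 6 CCAAT and 4 CHR matches, Bub3 holds 2 and 1, and Ncapg holds 1 of each. In the Cdx2 group against wild type, described below, the median log2 difference was 0.57 over the 26 members with both motifs, 0.62 over the 11 without both and 0.71 over the 5 with neither, without a test.

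**Figure D1:**
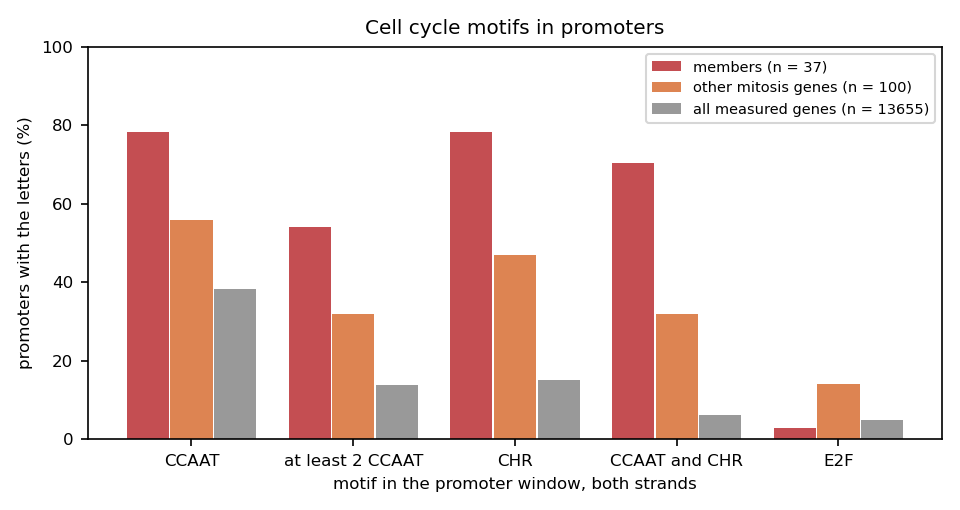
Share of promoter windows (percent) that hold the CCAAT, CHR or E2F letters on either strand, for the 37 mitosis genes described (members), 100 other mitosis genes and 13655 measured genes. The mitosis genes stand highest for CCAAT, for CHR and for both together (70.3% beside 6.23%), and not for the E2F letters.

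On every wild type and knockout array, each of the 43 genes read lower in the esophagus than in the reference of cultured lines. All 4 wild type log2 ratios were below 0 for 43 of 43 genes, beside 33.5% of all genes, and all 3 knockout ratios were too. The wild type means ran from -1.90 for Bub1, a checkpoint kinase, to -0.40 for Prc1, which bundles the microtubules of the spindle midzone. In the Cdx2 group the means ran from -1.43 for Anln, an anillin of the cleavage furrow, to 0.28 for Mki67, the antigen Ki-67 that coats mitotic chromosomes. 33 genes stayed below 0 on all 9 arrays, and Mki67 was the 1 gene above 0 on both Cdx2 arrays.

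The 43 genes differed together from array to array. Their median log2 ratio was -0.77, -1.16, -0.89 and -1.05 on the wild type arrays, -1.30, -0.67 and -0.75 on the knockout arrays, and -0.25 and -0.51 with Cdx2. Both Cdx2 arrays were thus the highest of the 9, while knockout replicate 1 was the lowest and the other knockout arrays lay above every wild type array. The median sample signal followed the same order at its ends, from 10.98 on wild type replicate 2 and on knockout replicate 1 to 12.43 on Cdx2 replicate 1 on the log2 scale, while the reference signal of the same probes stayed between 12.54 and 12.76. In the reference channel limma called 8 of the 43 in the knockout against wild type, 5 higher and 3 lower (12.7% of all genes), 4 with Cdx2 against the knockout (8.57% of all genes) and 0 with Cdx2 against wild type (0.234% of all genes), where the median reference difference was 0.04.

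**Figure D2:**
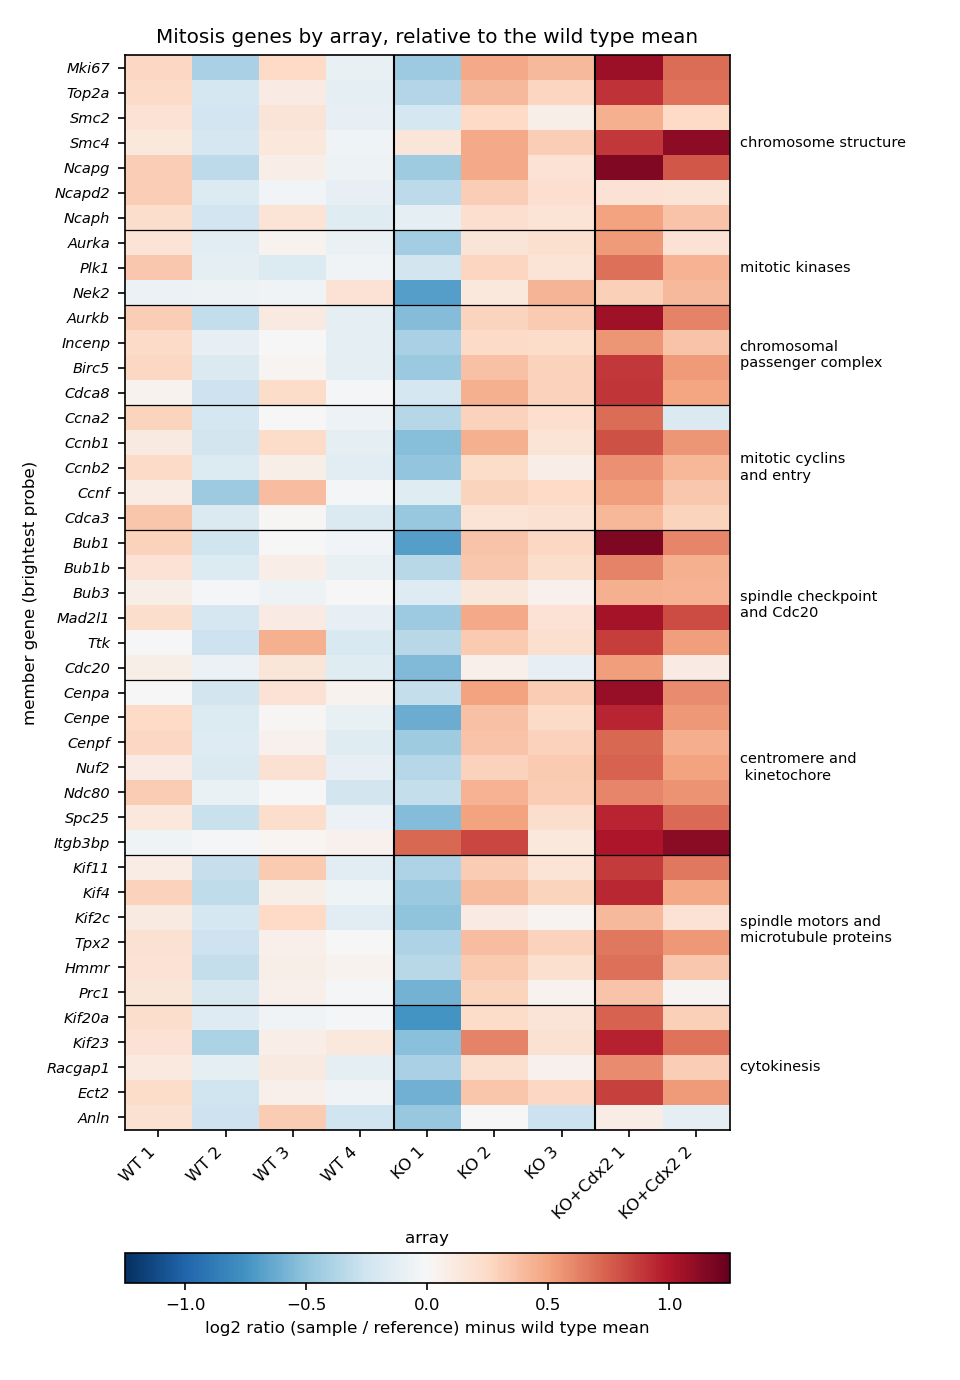
Log2 ratio of each of the 43 genes on each array minus its wild type mean, with genes grouped by role and vertical lines between the genotypes (WT, wild type; KO, p63 knockout; KO+Cdx2, p63 knockout with Cdx2). Knockout replicate 1 is blue in most rows, and both Cdx2 arrays are red in most rows, the first more than the second.

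Gene by gene, p63 knockout replicate 1 gave the lowest value of all 9 arrays for 37 of 43 genes, beside 11.7% of all genes, and fell below all wild type arrays for 37 (19.9% of all genes). Knockout replicates 2 and 3 both exceeded all wild type arrays for 15 genes (11.6% of all genes). Cdx2 replicate 1 gave the highest value for 38 genes (18.7% of all genes) and exceeded Cdx2 replicate 2 for 40 (51.8% of all genes). Within wild type, replicate 2 was lowest for 34 genes and replicate 1 highest for 29. The median SD over the 43 genes was 0.21 in wild type, 0.38 in the knockout and 0.17 with Cdx2, beside 0.15, 0.12 and 0.12 over all genes, so these genes varied more between replicates than the typical gene.

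Loss of p63 was compared with wild type first. No member of the group passed in either direction: 0 of 43 had an adjusted p below 0.05 by limma (called, in what follows), in a comparison that called 74 of 22651 genes, or 0.327%. At an unadjusted p under 0.05, limma gave 2 higher, Itgb3bp and Smc4, and 0 lower, beside 4.41% of all genes higher and 3.43% lower. The same 2 genes were also the 2 whose groups did not overlap, beside 5.91% of all genes. The median log2 difference was 0.06, beside 0.02 over all genes, with a range from -0.25 for Anln to 0.56 for Itgb3bp and 30 genes above 0 (56.1% of all genes). That count is of brightest probes, and over all passing probes of the 43 genes 40 of 76 were above 0. Read from the sample channel alone, 0 were called (1.74% of all genes) and the median was -0.02, so the sign of the group's shift depends on the channel. Intervals were wide: the 95% interval of Mki67 ran from -0.45 to 0.74 and that of Top2a, the topoisomerase that untangles sister chromatids, from -0.34 to 0.55.

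These knockout values depended on single arrays, knockout replicate 1 above all. Without it the median difference from wild type was 0.28 and 41 of 43 genes lay above 0. Of the 43, 7 had an unadjusted p under 0.05, all higher, beside 4% of all genes, yet 0 were called (0.146% of all genes). Without knockout replicate 2 the median was -0.09 with 7 genes above 0, and without replicate 3 it was -0.03 with 14 above 0. Without wild type replicate 2 it was -0.03 with 16 above 0. Without wild type replicate 4, whose labels conflict, the median was 0.02 and 26 genes lay above 0.

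The arrays labelled as p63 knockout with Cdx2 were compared with the knockout next. All 43 genes, beside 43.7% of all genes, were higher on average with Cdx2 than in the knockout, by a median log2 difference of 0.52, beside -0.03 over all genes, from 0.11 for Ncapd2 to 0.92 for Bub1. None was called, and limma called 0 of 22650 genes (0%) in this comparison. At an unadjusted p under 0.05, 26 of the 43 were higher and 0 lower, beside 5.18% of all genes higher and 6.26% lower. Both Cdx2 arrays exceeded all 3 knockout arrays for 37 genes, beside 14% of all genes. The lowest adjusted p among the members was 0.362 by limma. In the sample channel alone 0 were called (0.225% of all genes), at a median of 0.61.

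Here too single arrays carried part of the difference. Without knockout replicate 1 the median was 0.33, 42 genes lay above 0, and 11 had an unadjusted p under 0.05, all higher, beside 2.99% of all genes. Without Cdx2 replicate 1 the median was 0.42 and 2 genes had an unadjusted p under 0.05, beside 3.51% of all genes. Without Cdx2 replicate 2 the median was 0.65 and the count 22, beside 6.09%. Each of these fits leaves 1 Cdx2 array or fewer knockout arrays, and a lone array is assumed to vary like the other groups.

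Against wild type, the p63 knockout with Cdx2 gave the calls of members. Smc4 and Itgb3bp rose, 2 of 43 genes, in a comparison that called 319 of 22654 genes (1.41%), 0.437% of them all as higher. 42 of the 43 lay above 0, beside 49% of all genes, with Anln at -0.01, and the median over the 43 was 0.58, beside -0.01 over all genes. At an unadjusted p under 0.05, limma gave 31 higher and 0 lower, beside 9.02% of all genes higher and 9.13% lower. Both Cdx2 arrays exceeded all 4 wild type arrays for 35 genes, beside 13.8% of all genes. In the sample channel alone the median was 0.65 and 3 of the 43 were called, Bub3 joining Smc4 and Itgb3bp, beside 2.43% of all genes. The comparisons share arrays and are not independent of each other.

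**Figure D3:**
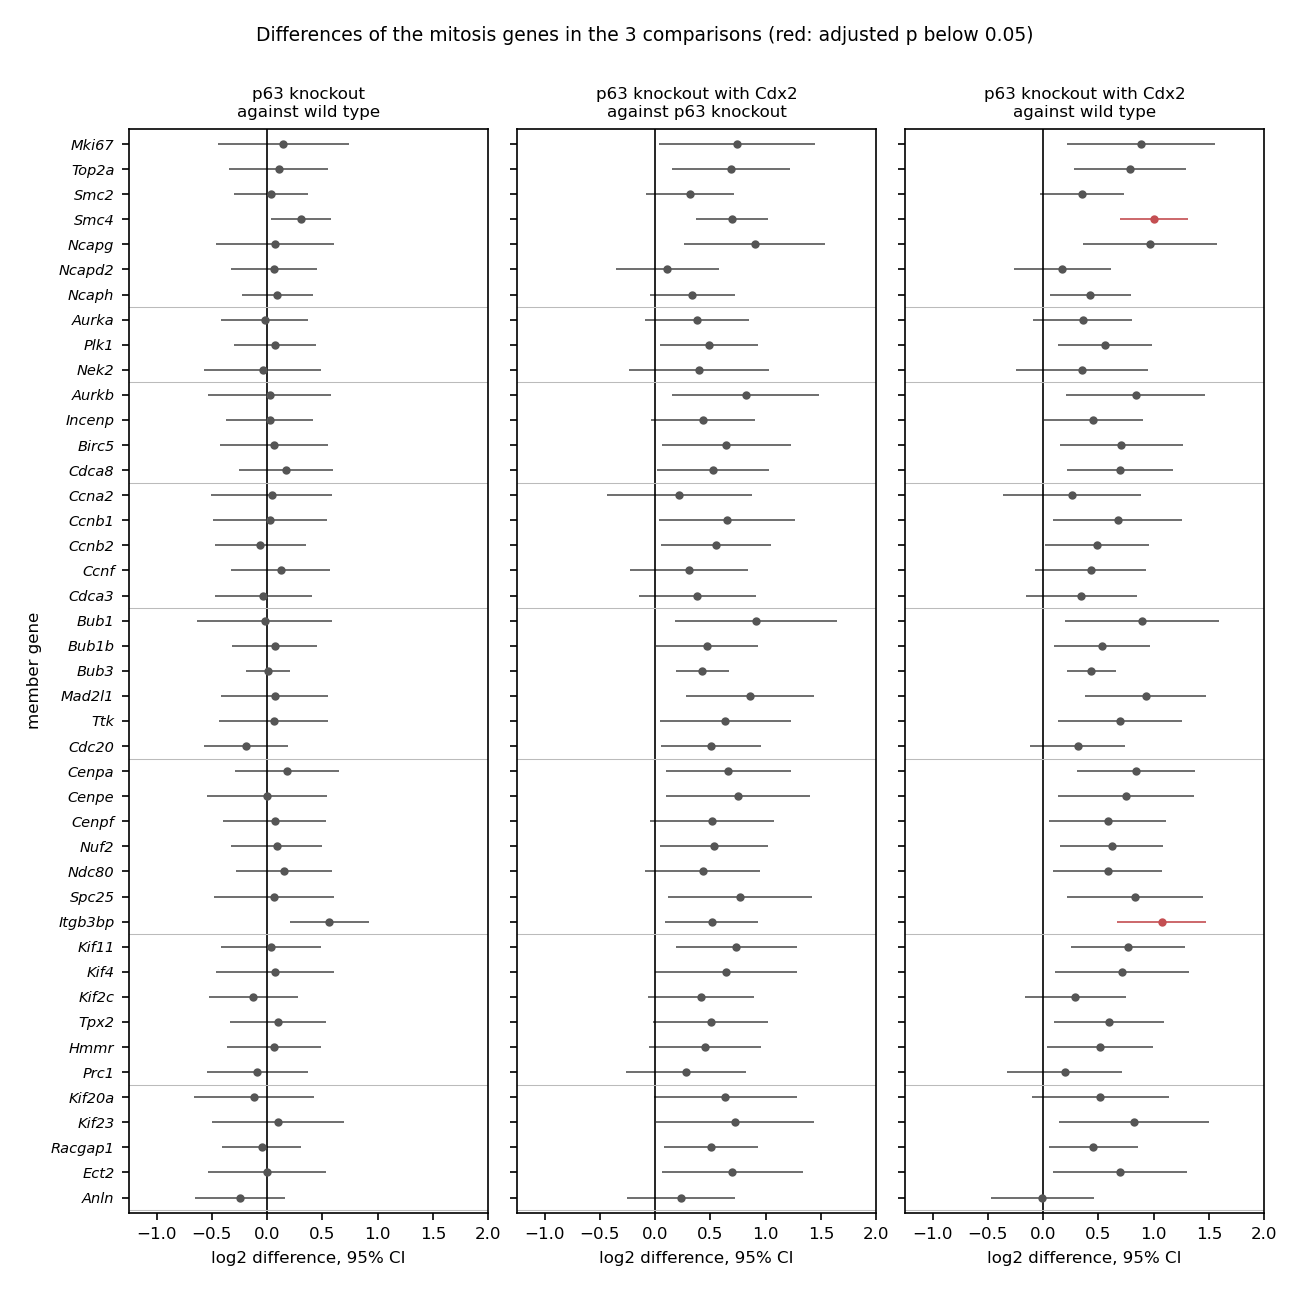
Log2 difference with its 95% interval for each of the 43 genes in the 3 comparisons, in order of role, with genes of an adjusted p below 0.05 (limma) in red. Points scatter around 0 in the knockout against wild type, with Itgb3bp farthest to the right, and lie right of 0 in both comparisons of the Cdx2 group except Anln against wild type. Smc4 and Itgb3bp are the 2 red points.

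The breadth of the difference from wild type rested on Cdx2 replicate 1 more than the median did. Without that array, 4 of 43 genes had an unadjusted p under 0.05 in place of 31, beside 5.69% of all genes higher, while the median was 0.48 and 41 genes stayed above 0. Without wild type replicate 4 the counts were 21 with an unadjusted p under 0.05 (8% of all genes higher) and 0 called (0.265% of all genes), at a median of 0.55. Without wild type replicate 2 they were 17 (7.5%) and 0 (0.256%), at a median of 0.53. Smc4 and Itgb3bp lost their calls without wild type replicate 2, wild type replicate 4 or Cdx2 replicate 2, with adjusted p-values by limma of 0.0525, 0.0645 and 0.0685 for Smc4 and 0.11, 0.0951 and 0.101 for Itgb3bp. Without wild type replicate 1 or Cdx2 replicate 1, Smc4 alone was called, and Itgb3bp had adjusted p-values of 0.0738 and 0.113. Without both wild type replicate 4 and knockout replicate 1, 32 had an unadjusted p under 0.05 (8.24%) and 0 were called (0.115%).

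Chromosome structure genes, 7 in number, build and compact mitotic chromosomes, and their median difference between the Cdx2 group and wild type was 0.79. Smc4 is the ATPase that pairs with Smc2 at the core of both condensin complexes. Its log2 ratio was -1.31, -1.65, -1.31 and -1.48 on the wild type arrays, -1.29, -0.97 and -1.14 on the knockout arrays, and -0.55 and -0.32 with Cdx2. The 3 groups did not overlap, with the knockout between wild type and the Cdx2 group. Smc4 rose by 1.00 against wild type (SE 0.14, 95% interval 0.69 to 1.31, 2.01-fold, adjusted p = 0.0181 by limma), and its difference was 0.31 in the knockout against wild type (adjusted p = 0.569) and 0.70 with Cdx2 against the knockout (adjusted p = 0.362). The call of Smc4 was lost with log ratios scaled between arrays (1.24, adjusted p = 0.11) and with only both compared groups in the fit (1.00, adjusted p = 0.0696), both by limma.

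The rise of Smc4 was read by 1 of its 2 probes. The brightest lies at chr3:68838453-68838512 on the plus strand (build mm9, as the files give it), and a second, at chr3:68832408-68832466, gave -1.12, -1.35, -1.36 and -1.39 on the wild type arrays, -1.35, -1.20 and -1.44 on the knockout arrays, and -1.08 and -1.04 with Cdx2. Both Cdx2 arrays were again above all others on this probe, by a much smaller step: the difference from wild type was 0.24 (SE 0.11, adjusted p = 0.275 by limma over all probes). Its sequence, like that of the Itgb3bp probe below, is shown because the probes of these genes gave steps of different size, and no base is marked. What sets the probes apart was not tested.
Smc4 probe A_51_P143212: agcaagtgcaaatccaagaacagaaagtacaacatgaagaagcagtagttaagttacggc
Itgb3bp probe A_52_P678909: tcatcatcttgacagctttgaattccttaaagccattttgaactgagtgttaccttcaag
As the mean of both probes, Smc4 differed from wild type by 0.62 (adjusted p = 0.0448 by limma).

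Ncapg, a regulatory subunit of condensin I, read -1.36, -1.99, -1.58 and -1.72 on the wild type arrays, -2.11, -1.19 and -1.48 on the knockout arrays, and -0.50 and -0.89 with Cdx2. Both Cdx2 arrays lay above the 7 others, and the knockout spanned the whole wild type range. Its difference from wild type was 0.97 (SE 0.26, adjusted p = 0.115 by limma), while its other passing probe differed by 0.20 (adjusted p = 0.78 over all probes). Mki67 and Top2a, the markers most used for dividing cells, differed from wild type by 0.88 and 0.79 in the Cdx2 group, with adjusted p-values of 0.167 and 0.12 by limma. Smc2, the partner of Smc4 in condensin, differed by 0.35 (adjusted p = 0.311) on its brightest probe and by 0.64, 0.71 and 0.35 on its others. The other condensin I subunits Ncaph and Ncapd2 differed by 0.43 and 0.17. Ncapd2 thus had the smallest difference of these 7 genes, with a 95% interval from -0.27 to 0.62.

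Among the 3 mitotic kinases, Plk1, which drives entry into mitosis and spindle assembly, read -0.34, -0.80, -0.84 and -0.72 on the wild type arrays, -0.91, -0.40 and -0.50 on the knockout arrays, and 0.01 and -0.24 with Cdx2. Its Cdx2 arrays were the highest of the 9, and the difference from wild type was 0.56 (SE 0.18, adjusted p = 0.164 by limma). Aurka, the Aurora kinase of the spindle poles, read -0.84, -1.14, -0.97 and -1.09 on the wild type arrays, -1.45, -0.85 and -0.81 on the knockout arrays, and -0.47 and -0.83 with Cdx2. The second Cdx2 array of Aurka lay within the knockout range and just above the highest wild type value, and the difference from wild type was 0.36 (adjusted p = 0.376). Nek2, a centrosome kinase, differed by 0.35 (adjusted p = 0.528).

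The chromosomal passenger complex, 4 members that together correct faulty attachments and later guide cytokinesis, had a median difference of 0.70 between the Cdx2 group and wild type, and 4 of 4 did not overlap between those groups (13.8% of all genes). Aurkb, its kinase, read -1.11, -1.73, -1.31 and -1.54 on the wild type arrays, -1.97, -1.15 and -1.09 on the knockout arrays, and -0.37 and -0.80 with Cdx2. Cdca8 (borealin) read -0.46, -0.75, -0.27 and -0.51 on the wild type arrays, -0.72, -0.06 and -0.21 on the knockout arrays, and 0.39 and -0.01 with Cdx2. On the brightest probe of both genes the Cdx2 arrays exceeded all others and knockout replicate 1 fell below the other knockout arrays. The differences from wild type were 0.84 for Aurkb (SE 0.27, adjusted p = 0.163) and 0.69 for Cdca8 (SE 0.21, adjusted p = 0.139) by limma. Other probes of Cdca8 differed by 0.51 and 0.13, with Cdx2 replicate 2 inside the wild type range on both. On the latter, knockout replicate 1 was the highest knockout array. The scaffold Incenp and the targeting subunit Birc5 (survivin) differed by 0.46 and 0.71.

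Of the 5 genes of mitotic cyclins and entry, Ccnb1, the cyclin that activates Cdk1 at the start of mitosis, read -1.30, -1.65, -1.19 and -1.54 on the wild type arrays, -1.95, -0.97 and -1.25 on the knockout arrays, and -0.62 and -0.86 with Cdx2. Ccnb2, its close relative, read -0.26, -0.67, -0.42 and -0.63, then -0.99, -0.26 and -0.41, and then 0.07 and -0.08, in the same order of groups. For both cyclins the Cdx2 arrays were the highest of the 9, and the differences from wild type were 0.68 (adjusted p = 0.213) and 0.49 (adjusted p = 0.256) by limma. Ccna2, which acts in S phase and G2, did not share the pattern, with -0.07 on Cdx2 replicate 1 and -0.96 on replicate 2. The latter lay inside the wild type range of -1.00 to -0.49, the SD of 0.62 was the largest in that group, and the difference from wild type was 0.26 (95% interval -0.36 to 0.88). Ccnf, an F-box cyclin, and Cdca3, a trigger of mitotic entry, differed by 0.43 and 0.35.

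The spindle checkpoint genes and Cdc20, 6 in all, had a median difference from wild type of 0.61 with Cdx2. Bub3, which docks checkpoint proteins on kinetochores, read -0.49, -0.59, -0.63 and -0.57 on the wild type arrays, -0.74, -0.43 and -0.52 on the knockout arrays, and -0.13 and -0.14 with Cdx2. Its replicates were the tightest of the checkpoint genes, the Cdx2 arrays stood above all others, and the difference of 0.44 (SE 0.10, 95% interval 0.21 to 0.66) had an adjusted p of 0.0738 by limma. In the sample channel alone the difference was 0.52 with an adjusted p of 0.0393 by limma. These values are from its brightest probe. Its other passing probes differed from wild type by 0.28 (adjusted p = 0.457) and 0.22 (adjusted p = 0.576) by limma over all probes. On both of those, Cdx2 replicate 2 (-0.13 and -0.28) lay inside the wild type range. Mad2l1, the inhibitor of Cdc20 that delays anaphase, read -1.07, -1.50, -1.19 and -1.40 on the wild type arrays, -1.74, -0.81 and -1.11 on the knockout arrays, and -0.25 and -0.47 with Cdx2. Both Cdx2 arrays again exceeded the other 7, with a difference of 0.93 (SE 0.24, adjusted p = 0.101). Without knockout replicate 1 both genes were called against wild type, with adjusted p-values of 0.0469 for Bub3 and 0.0411 for Mad2l1 by limma.

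Bub1, the checkpoint kinase, had the largest difference between the Cdx2 group and the knockout, 0.92 (SE 0.32, adjusted p = 0.378 by limma), but its second probe differed by -0.01 from wild type where the brightest differed by 0.89. Bub1b and Ttk, of the same checkpoint, differed from wild type by 0.53 and 0.69. Cdc20, the activator of the anaphase-promoting complex that the checkpoint holds back, differed by 0.31 from wild type and by 0.51 from the knockout.

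Centromere and kinetochore genes number 7. On their brightest probes all 7 had a difference from wild type of at least 0.58 with Cdx2, no overlap between those groups (13.8% of all genes) and an unadjusted p under 0.05 (9.02% of all genes higher). Itgb3bp encodes CENP-R, a protein of the constitutive centromere network that was first described as a partner of integrin beta3 and a nuclear receptor coregulator. It read -1.72, -1.70, -1.64 and -1.62 on the wild type arrays, -0.95, -0.83 and -1.53 on the knockout arrays, and -0.65 and -0.54 with Cdx2. All 4 wild type arrays lay close together and below every other array, and both Cdx2 arrays lay above all knockout arrays. Knockout replicate 3 was near wild type, and replicate 1, the lowest array for most other members, was not low here.

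Itgb3bp rose by 1.07 with Cdx2 against wild type (SE 0.18, 95% interval 0.67 to 1.47, 2.10-fold, adjusted p = 0.038 by limma). The difference was 0.56 in the knockout against wild type (SE 0.15, adjusted p = 0.337) and 0.51 with Cdx2 against the knockout (adjusted p = 0.39). Without knockout replicate 3, the knockout value was 0.78 and was called (adjusted p = 0.0331 by limma). Its brightest probe, printed above, maps to chr4:99434255-99436231 on the minus strand (mm9), so its 60 bases span 1977 bases of genome and cross an intron. With Cdx2 its other 2 probes differed from wild type by 0.33 (adjusted p = 0.243) and 0.55 (adjusted p = 0.106) by limma over all probes. In the knockout against wild type those 2 probes differed by -0.08 and 0.15, where the brightest gave 0.56, and the range of 0.64 between probes was the widest of any member in that comparison. As the mean of its probes Itgb3bp differed by 0.65 (adjusted p = 0.0476). Its call was lost with log ratios scaled between arrays (1.38, adjusted p = 0.179) and with array weights (1.07, adjusted p = 0.0836), both by limma.

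**Figure D4:**
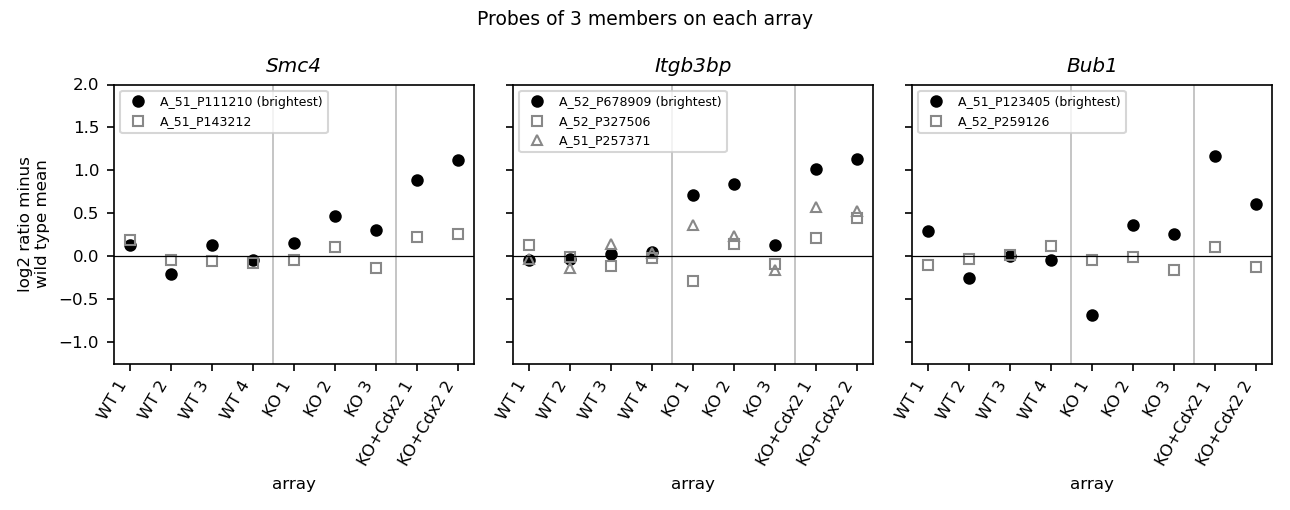
Log2 ratio of each probe of Smc4, Itgb3bp and Bub1 on each array minus its wild type mean, with the brightest probe filled and the others open. On both Cdx2 arrays the brightest probe of each gene lies well above its wild type mean, while the second Smc4 probe and the second Bub1 probe lie closer to 0.

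Both called genes lie close to a neighbour, and these neighbours were named after their values were seen. Smc4 lies 57 bases from Ift80 and Itgb3bp 229 bases from Efcab7 in the RefSeq table (GRCm38.p6). With Cdx2 against wild type, Ift80, a cilium transport gene, differed by 0.21 (adjusted p = 0.5) and Efcab7 by -0.51 (adjusted p = 0.399) by limma.

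Cenpa, the histone H3 variant that marks centromeres, read -1.18, -1.41, -1.00 and -1.13 on the wild type arrays, -1.47, -0.68 and -0.86 on the knockout arrays, and -0.09 and -0.58 with Cdx2. The Cdx2 arrays were above the other 7, and the difference from wild type was 0.84 (SE 0.23, adjusted p = 0.118 by limma). The microtubule-binding Ndc80 complex was represented by Ndc80, Nuf2 and Spc25, with differences from wild type of 0.58, 0.62 and 0.83. The kinetochore motor Cenpe and the large coiled-coil protein Cenpf differed by 0.75 and 0.58. Other probes of Cenpe differed by 0.64 and 0.45. The second Cenpf probe differed by 0.21, with Cdx2 replicate 2 inside the wild type range.

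Among 6 spindle motors and microtubule proteins the median difference from wild type was 0.55 with Cdx2. Kif11, the motor that pushes spindle poles apart, read -0.77, -1.15, -0.53 and -0.99 on the wild type arrays, -1.25, -0.54 and -0.69 on the knockout arrays, and 0.02 and -0.20 with Cdx2. Tpx2, which activates Aurka on the spindle, read -0.85, -1.31, -0.99 and -1.05 on the wild type arrays, -1.44, -0.67 and -0.76 on the knockout arrays, and -0.39 and -0.51 with Cdx2. On their brightest probes both genes had their highest values on the Cdx2 arrays. Their differences from wild type were 0.77 (adjusted p = 0.131) and 0.60 (adjusted p = 0.196) by limma. Other probes of Kif11 differed by 0.64 and 0.23, and on the latter both Cdx2 arrays lay inside the wild type range. The chromosome motor Kif4 differed by 0.71 and the microtubule-bound Hmmr by 0.51. Kif2c, a microtubule depolymerase, and Prc1 had smaller differences of 0.29 and 0.19, with intervals that include 0.

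Cytokinesis genes, 5 in all, had a median difference from wild type of 0.52 with Cdx2, and Anln had the lowest value. Kif23, a motor of centralspindlin, read -0.56, -1.13, -0.65 and -0.60 on the wild type arrays, -1.25, -0.11 and -0.55 on the knockout arrays, and 0.23 and -0.06 with Cdx2. Ect2, the exchange factor that activates RhoA at the furrow, read -0.89, -1.37, -1.06 and -1.16 on the wild type arrays, -1.72, -0.77 and -0.86 on the knockout arrays, and -0.26 and -0.58 with Cdx2. In both, the Cdx2 arrays were the highest of the 9 and the knockout spanned the wild type range. The differences from wild type were 0.82 (adjusted p = 0.194) and 0.70 (adjusted p = 0.214) by limma. Kif20a, a midzone motor, and Racgap1, the other subunit of centralspindlin, differed by 0.52 and 0.45. On its brightest probe Anln read -1.23, -1.68, -1.10 and -1.67 in wild type and -1.32 and -1.54 with Cdx2, so that the Cdx2 arrays lay inside the wild type range, and its 95% interval ran from -0.47 to 0.46. Its other probe read -0.62, -0.95, -0.74 and -1.28 on the wild type arrays, -1.80, -0.95 and -0.88 on the knockout arrays, and -0.56 and -0.55 with Cdx2. On that probe both Cdx2 arrays were above the other 7, with a difference from wild type of 0.34 (adjusted p = 0.556 by limma over all probes). The other probes of Racgap1 and Ect2 differed by -0.06 and 0.20, so the order of these genes depends on the probe.

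In both comparisons of the Cdx2 group, probes of a gene mostly pointed the same way as the brightest. There 76 of 76 passing probes were above 0 against the knockout and 73 against wild type. In the knockout against wild type 40 of 76 were above 0. All probes were above 0 in that comparison for 5 of the 23 genes with several, so the direction often depended on the probe. Tested probe by probe, limma called 2 of the 76 against wild type, the brightest of Smc4 and of Itgb3bp, beside 1.12% of all probes. Between probes of 1 gene the differences from wild type spanned a median of 0.35, with the widest span, 0.90, in Bub1. In the knockout against wild type, 0 probes were called (0.264% of all probes), and against the knockout 0 were called with Cdx2 (0%).

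Other cell cycle genes were measured from lists of the same pathway. For 119 other mitosis genes the median difference was 0.00 in the knockout against wild type, 0.45 with Cdx2 against the knockout and 0.40 with Cdx2 against wild type. In the last comparison 4 were called higher and 0 lower, beside 0.437% of all genes called higher. They included Bora, an activator of Aurka, by 0.94 (adjusted p = 0.0446) and Ncapd3 of condensin II by 0.78 (adjusted p = 0.0456) by limma. The others, also by limma, were Mis18a, needed for Cenpa loading, by 0.74 (adjusted p = 0.0471) and cohesin subunit Rad21 by 0.60 (adjusted p = 0.0475). For 61 genes of DNA replication and S phase the medians were 0.04, 0.50 and 0.56. With Cdx2 against wild type 1 was called higher, beside the same 0.437% of all genes: Dut, a dUTPase, by 0.90 (adjusted p = 0.046 by limma). Gmnn, the licensing inhibitor geminin, and Dbf4, the activator of Cdc7, differed by 0.80 and 0.64, with adjusted p-values of 0.0504 and 0.0508.

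Inhibitors of the cycle and genes of G0 or G1 had medians near 0. They were -0.04, -0.06 and -0.12 over 21 genes in the 3 comparisons, with 0 called in each (0.327%, 0% and 1.41% of all genes). The lowest p belonged to Cdkn1a, the p53 target p21, at -1.27 with Cdx2 against wild type (SE 0.27, adjusted p = 0.0614 by limma) and at -0.80 against the knockout (adjusted p = 0.382). Cdkn2b (p15) was at -1.19 against wild type (adjusted p = 0.18), and Rbl1, a pocket protein that is itself induced in cycling cells, at 0.54 (adjusted p = 0.162).

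Markers of other cell types also differed from array to array. Of 15 erythroid markers 14 were measured, all 14 well above background on all 9 arrays, and their median log2 ratio was 1.79, 1.25, 1.32 and 1.55 on the wild type arrays, 1.18, 1.83 and 1.95 on the knockout arrays, and 2.61 and 1.79 with Cdx2. Knockout replicate 1 was lowest and Cdx2 replicate 1 highest in this list too. The log2 of the summed sample signal was 18.16 to 18.56 in wild type and 18.03 to 18.39 in the knockout. With Cdx2 it was 18.31 to 18.40. Sums here and below add signals before the log is taken, so the brightest genes weigh most. In the sample channel alone the median difference of the 14 was 0.80 with Cdx2 against wild type, and 0 were called (2.43% of all genes). With Cdx2 against wild type, 12 of 14 were above 0 (49% of all genes) at a median of 0.57, and 0 were called (1.41% of all genes). An unadjusted p under 0.05 by limma was found for 7, all higher, beside 9.02% of all genes higher. The defining genes Hba-a1, a globin, and Alas2, of heme synthesis, differed by -0.21 and 0.05, while Epb42, a protein of the red cell membrane skeleton, differed by 1.26. Fibroblast markers, 12 of 12 measured, had medians of -0.03, -0.28 and -0.40 in the 3 comparisons, with 0 called (0.327%, 0% and 1.41% of all genes). Their summed log2 signal was 20.07 to 20.37, 20.19 to 20.39, and 19.84 to 20.14 in the 3 groups. Immune cell markers, 15 of 16 measured, had a median log2 ratio of 0.30 to 0.56 on the wild type arrays, 1.06, 0.61 and 0.66 on the knockout arrays, and 0.56 and 0.64 with Cdx2. Knockout replicate 1, the lowest array for the mitosis genes, was thus the highest for this list. Its log2 summed signal of these markers was 18.98, beside 17.67 and 17.68 on the other knockout arrays, 17.25 to 17.97 in wild type and 16.37 to 17.80 with Cdx2. The part of these cell types in the mitosis result was not tested.

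**Figure D5:**
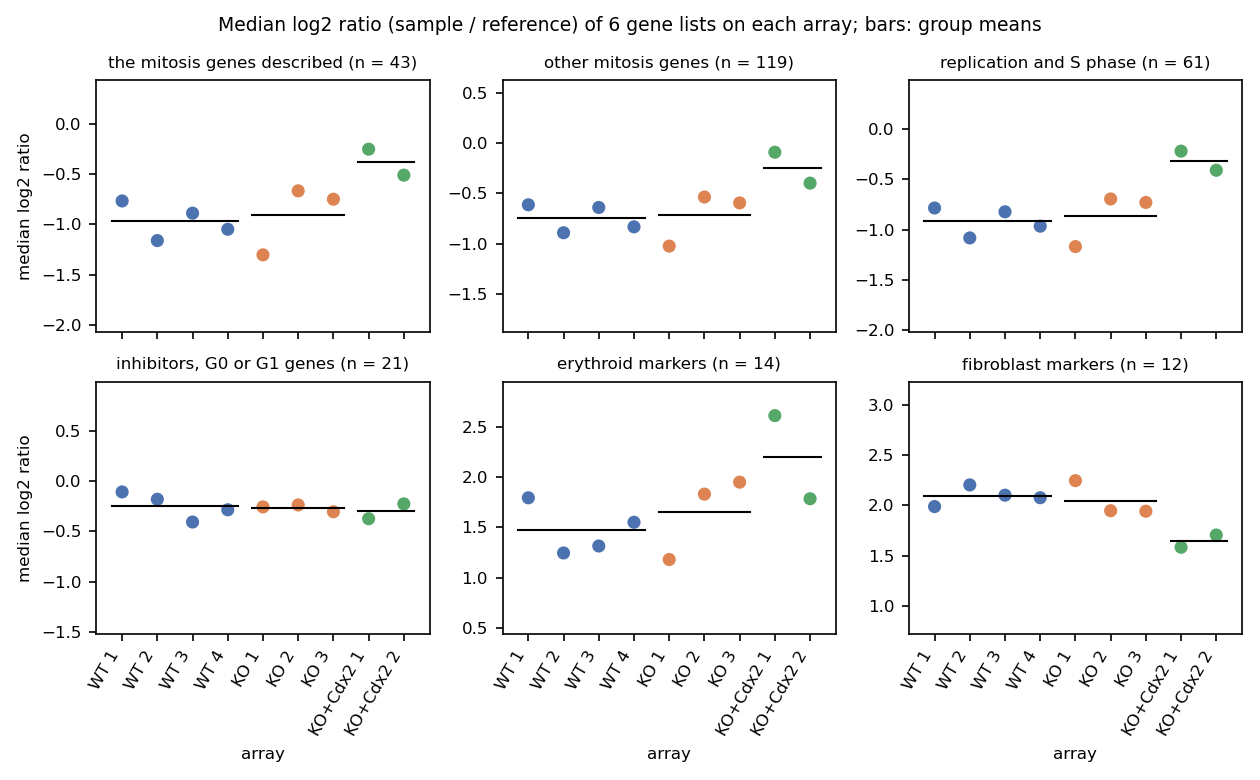
Median log2 ratio of 6 gene lists on each array, with bars at the group means and an axis of equal length in every panel. The mitosis genes described, the other mitosis genes and the replication genes have the same order of arrays at both ends, with knockout replicate 1 lowest and Cdx2 replicate 1 highest, and so do the erythroid markers, while the fibroblast markers have the reverse order at both ends and the inhibitors differ little.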

How the data were processed

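The members and gene lists were chosen with earlier results of these data known. Per the file headers, the deposited scanner files hold the mean intensity and local background intensity of each spot in both channels, written by Agilent Feature Extraction 10.7.3.1 (9.1 per the submitters' processing notes), beside processed signals and their Cy5 over Cy3 ratio as log10. The deposited value table holds log2 ratios by the authors, which correlated with each array's own at r of 0.992 or more. Its column medians ran from -0.212 to -0.0292, and its centring is not given in the sources used here.

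Normexp (offset 50) on mean and local background signals and loess within arrays were applied in limma 3.58.1 (R 4.3.3), leaving out control spots and spots marked as outliers (119 to 171 per array). No sample spot was saturated. Kept were 33761 probes whose sample signal was well above background on 2 or more arrays, with 30038 to 33249 well above background on each array. The number of arrays limits the precision. Of 41174 probes 26918 took their gene name from RefSeq (GRCm38.p6) by accession and 5899 by symbol, older symbols included, and the others kept the file's name. Probe coordinates are mm9. Genes were read from their brightest probe and fitted in 1 linear model over 9 arrays and 3 genotypes with eBayes and Benjamini-Hochberg adjustment at 0.05, and the fit was checked on simulated data. The sample channel alone was read after loess and Aquantile. Members could all be named, with values on every array for those called in a comparison and 2 per role of lowest p with Cdx2 against wild type. From other lists the 3 genes of lowest p in a comparison could be named. Hba-a1 and Alas2 are defining markers, and Rad21 is the last of the 4 called in its list. Ift80 and Efcab7 were picked after their values were seen. Other lists measured for cell types were immune cell, smooth muscle, skeletal muscle, simple epithelium, multiciliated cell and enteric neuron and glia markers, with 0 genes called higher in any comparison and medians with Cdx2 against wild type of 0.08, -0.36, -0.11, -0.29, -0.07 and -0.04. Basal squamous markers had medians of -1.15, -0.17 and -1.45 in the 3 comparisons, with 4, 0 and 5 of 10 called lower. Of all genes, 0.327%, 0% and 1.41% were called in either direction. Arrays with equal replicate numbers did not deviate together (r from -0.135 to 0.188), so no pairing was used.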

Additional observations from a re-analysis of the deposited data

Results flagged for a closer look

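In wild type, where 4 arrays allow such a test, 2 of the 43 genes had 1 array far from the others, and chance alone marks about 1 in 20 such groups. Nek2 read -0.82 on wild type replicate 4, the array whose labels conflict, beside -1.07 to -1.04 on the others. Kif23 read -1.13 on wild type replicate 2, beside -0.65 to -0.56 on the others. Groups of 3 and 2 arrays were not tested.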

How the results depend on the processing

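The median difference of the 43 genes stayed within 0.25 of its reported value under every alternative run. That band is 1 SD of the array medians, pooled within the 3 groups. The medians ran from -0.09 to 0.28 for the knockout against wild type and from 0.33 to 0.65 for Cdx2 against the knockout. For Cdx2 against wild type they ran from 0.48 to 0.71. The band of 0.25 is wider than the knockout median of 0.06, whose sign changed within it. Staying inside the band therefore does not show the knockout median to be stable. The 2 calls against wild type became 0 with log ratios scaled between arrays, 1 with only both compared groups in the fit, 1 with array weights, and 0 without both wild type replicate 4 and p63 knockout replicate 1, an alternative chosen after seeing the data, as was testing each probe on its own. Leaving out 1 wild type or knockout array gave 0 to 4 calls, with the share of all genes called beside them. There were 0 without wild type replicate 2 (0.256%) or 4 (0.265%), 1 (Smc4) without wild type replicate 1 (0.667%), and 4 without knockout replicate 1 (1.65%). Fits without a Cdx2 array leave 1 such array, and their medians were 0.48 without replicate 1 and 0.71 without replicate 2. For the knockout against wild type, leaving out 1 wild type or knockout array gave 0 to 1, Itgb3bp without knockout replicate 3 (0.115% of all genes). With the replicate block the calls against wild type became 0, with adjusted p-values of 0.247 for Smc4 and 0.265 for Itgb3bp by limma. The numbers share no source in the labels and the pairing check found no shared deviation. The cause of these changes was not tested. Over these alternatives the adjusted p ran from 0.00915 to 0.247 for Smc4 and from 0.00685 to 0.265 for Itgb3bp, and genes called among all tested ran from 8 to 813 (319 as reported), from 0 to 51 for Cdx2 against the knockout (0 as reported) and from 8 to 394 for the knockout against wild type (74 as reported). Among all genes called for the knockout against wild type the share higher was 17.6%, 43.7% in the sample channel alone and 7.52% from the scanner's processed signals, and for Cdx2 against wild type it was 31% and, with scaling between arrays, 19.4%. A block for slide or scan was not run, since each holds 1 genotype. All 76 passing probes of the members were well above background on every array.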
